A study of Mus musculus with 20 samples.

Results

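The comparison described here sets 5 Pool 2 mice against 5 Pool 1 mice, 10 of the 20 bulk RNA-seq libraries of the series, across all 25190 genes of the deposited table. Membership followed the treatment given in the sample labels, and the comparison was made again without Pool 2 replicate 1, whose library stood apart. All animals were wild-type C57BL/6JOlaHsd males aged 4 months according to the labels. Pool 1 and Pool 2 mice carried cannulas into the CA1 region of the dorsal hippocampus and received small RNAs (sRNAs) pooled from the post-mortem hippocampi of patients with schizophrenia, a separate set of patients for each pool. In Control mice the pooled sRNAs came from control individuals, and Vehicle mice received artificial cerebrospinal fluid, so surgery and infusion were common to all 4 groups. Each pool was infused as a mixture, and the 5 mice of a group are therefore replicates of the infusion and not of the patients. The design text names CA1 tissue and the sample labels name hippocampal tissue, and the animals were killed after behavioural testing. Nothing tested here separates the sRNAs of a pool from anything else in which its mice, their surgery or their dissection differed.

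A brain region that has been cannulated and infused holds several responding cell types. Astrocytes that react to injury raise their intermediate filaments and secreted protease inhibitors, and microglia that take up debris raise lysosomal and lipid-handling genes. Cells exposed to interferon switch on guanylate-binding proteins, chemokines and the machinery that displays peptides on major histocompatibility complex (MHC) molecules. The hippocampus is bordered by the meninges and the choroid plexus and lies directly above the thalamus, whose relay neurons express transcription factors that hippocampal neurons largely lack.

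Total counts ranged from 21351170 to 25314679 in Pool 1 mice and from 21562625 to 25100519 in Pool 2 mice, so depth did not separate the groups. Markers of dentate granule cells and CA1 pyramidal neurons were read in every library, with summed levels over Pool 1 and Pool 2 mice of 580 to 1519 CPM (counts relative to the TMM-scaled library size) for the 13 dentate genes and of 519 to 1368 CPM for the 8 CA1 genes. The 6 abundant RNAs without a poly(A) tail, which escape the selection of polyadenylated RNA to a varying degree, summed to 1764 to 14080 CPM in Pool 1 mice and 3456 to 9605 CPM in Pool 2 mice. Their part in the results was not tested.

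Over the 20 libraries, 1426 genes were upregulated and 292 were downregulated in Pool 2 mice compared with Pool 1 mice. The threshold asked for a log2 fold change of 0.3 or more in either direction together with p under 0.05, before adjustment, in edgeR's quasi-likelihood test. These are the study's limits without its further filter on low genes, and a mean normalized count of 10 was reached by 971 of the genes called upward and by 159 of those called downward. Upregulated genes made up 5.66% of the 25190 genes tested and downregulated genes 1.16%. No gene passed the Benjamini-Hochberg adjustment over all genes, the smallest adjusted p-value from edgeR being 0.0896 for Tph2, and 2146 genes had p under 0.05 before adjustment. DESeq2, fitted to the same libraries, gave 115 genes at an adjusted p-value under 0.05, of which 106 were higher and 9 lower in Pool 2 mice. The median log2 fold change of all genes was 0.019 after TMM scaling, which centres the table. Coding genes accounted for 81.1% of the calls upward and for 52.4% of those downward, against 66.5% of all genes.

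A large share of the upregulated genes came from Pool 2 replicate 1. Of the 1426 genes, 828 had their highest level of the 10 mice in that animal, against 76 to 315 in each of the other Pool 2 mice. Without it, 924 genes were upregulated, which is 3.67% of all genes, and 266 were downregulated, which is 1.06%. No gene had an adjusted edgeR p-value under 0.05 in this fit either, with a smallest value of 0.0911 and 1388 genes with p under 0.05 before adjustment, whereas DESeq2 gave 75 such genes, 74 of them higher in Pool 2 mice. The fits share 9 of the 10 mice and are not independent, and 785 upregulated genes were common to both, 55.0% of the longer list and 85.0% of the shorter. Of the 641 upregulated genes lost, 583 (91.0%) had their highest level in Pool 2 replicate 1. Pool 2 replicate 4 then held the highest level of 442 of the 924 genes. Leaving out that mouse as well brought the count to 620, or 2.46% of all genes. Leaving out another Pool 2 mouse instead gave 2.75% of all genes upregulated (replicate 2), 3.65% (replicate 3) or 3.67% (replicate 5), and leaving out Pool 1 replicate 1, 2, 3, 4 or 5 instead gave 4.03%, 3.33%, 2.88%, 3.42% or 4.38%. These shares are the background for each count below that leaves out a further mouse.

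**Figure D1:**
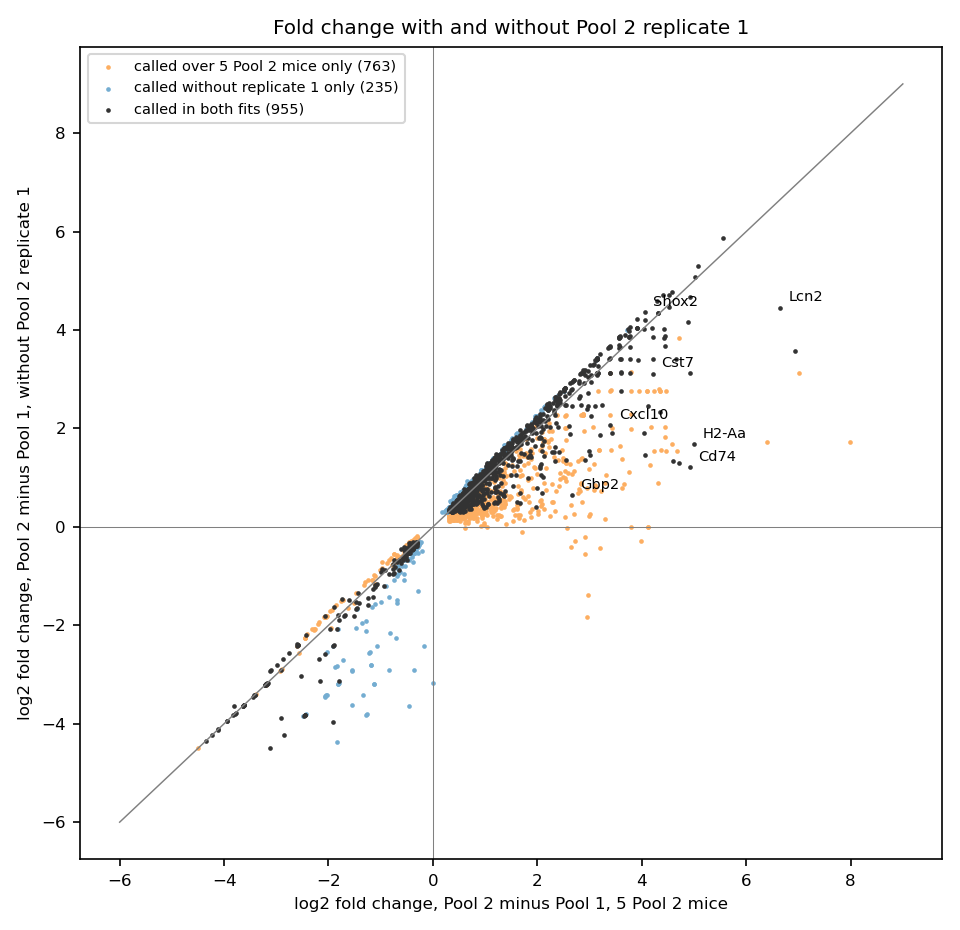
Log2 fold change of Pool 2 over Pool 1 mice with all 5 Pool 2 mice (horizontal axis) and without Pool 2 replicate 1 (vertical axis), for every gene past the threshold in at least 1 fit. Black points are the 955 genes called in both fits, orange points the 763 called only with all mice and blue points the 235 called only without replicate 1. Many orange points, and the labelled genes H2-Aa, Cd74, Gbp2 and Cxcl10, lie well below the diagonal, where a fold change shrinks once replicate 1 is left out, while Shox2 lies slightly above it.

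Gene lists were used to describe which functions the calls belonged to. The level of each list in each mouse showed different animals behind different lists. In Pool 2 replicate 1 the 18 antigen presentation genes summed to 2291 CPM and the 32 interferon-stimulated genes to 882 CPM, against 236 to 304 CPM and 136 to 188 CPM in the other 4 Pool 2 mice. That animal was also the lowest of the Pool 2 mice for the 11 thalamus genes, at 189 CPM, whereas Pool 2 replicate 4 reached 680 CPM. The same replicate 4 held the most meningeal fibroblast RNA, at 250 CPM over 15 genes against 74.7 to 144 CPM in the other Pool 2 mice. In a bulk sample, more cells of a type and more RNA per cell cannot be told apart.

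**Figure D2:**
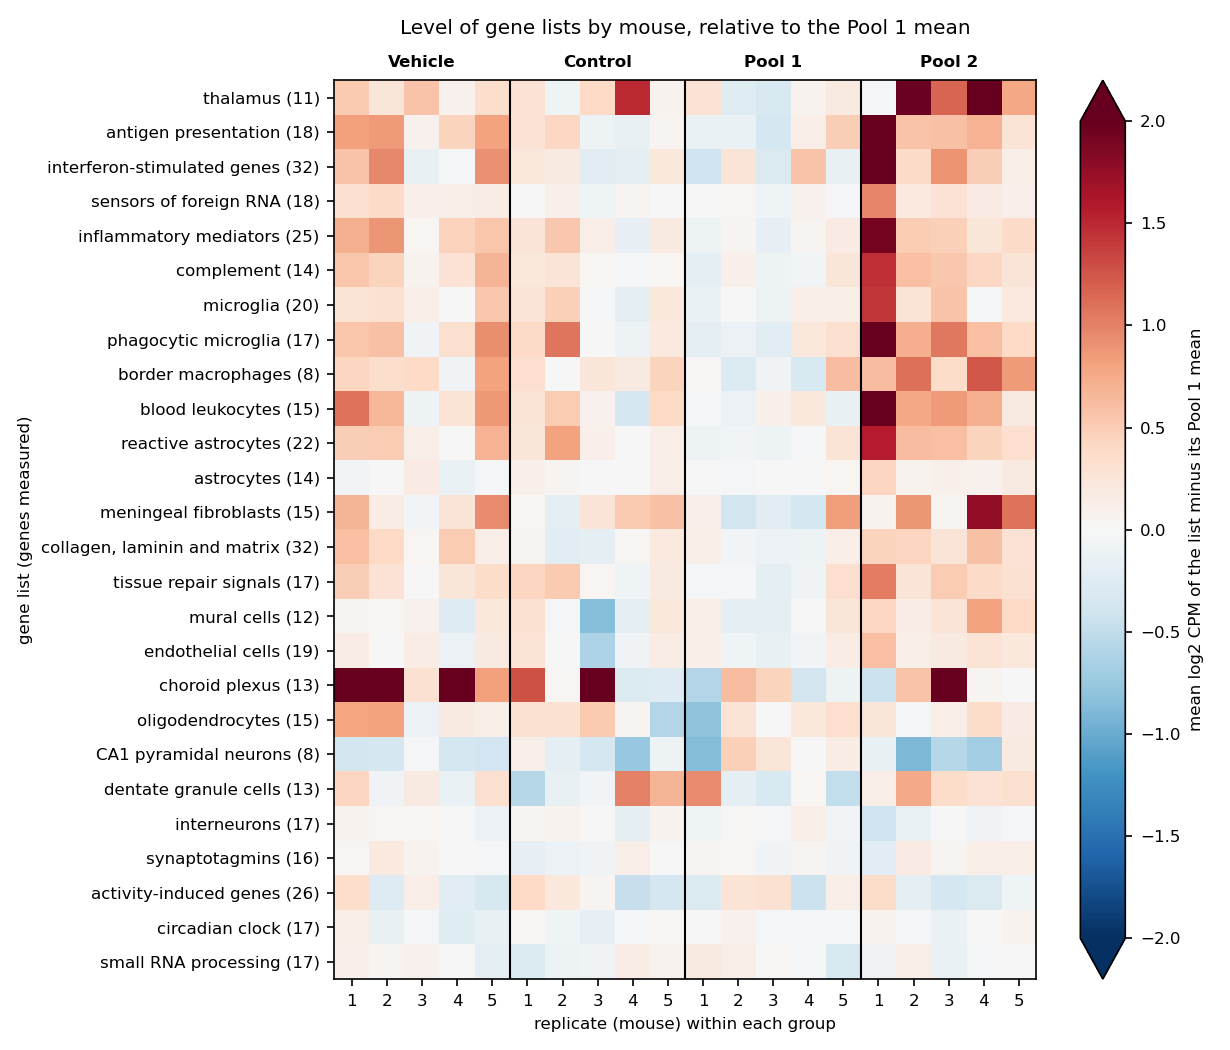
Level of 26 gene lists in each of the 20 mice, as the mean log2 CPM of the list minus its Pool 1 mean, with the number of genes measured in brackets. Columns are mice in replicate order within Vehicle, Control, Pool 1 and Pool 2, red is above and blue below the Pool 1 mean, and the scale is clipped at 2 in either direction. Pool 2 replicate 1 is dark red for the immune and glial lists and pale for thalamus, Pool 2 replicates 2 to 4 are red for thalamus, and Pool 2 replicate 4 is the reddest for meningeal fibroblasts.

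**Figure D3:**
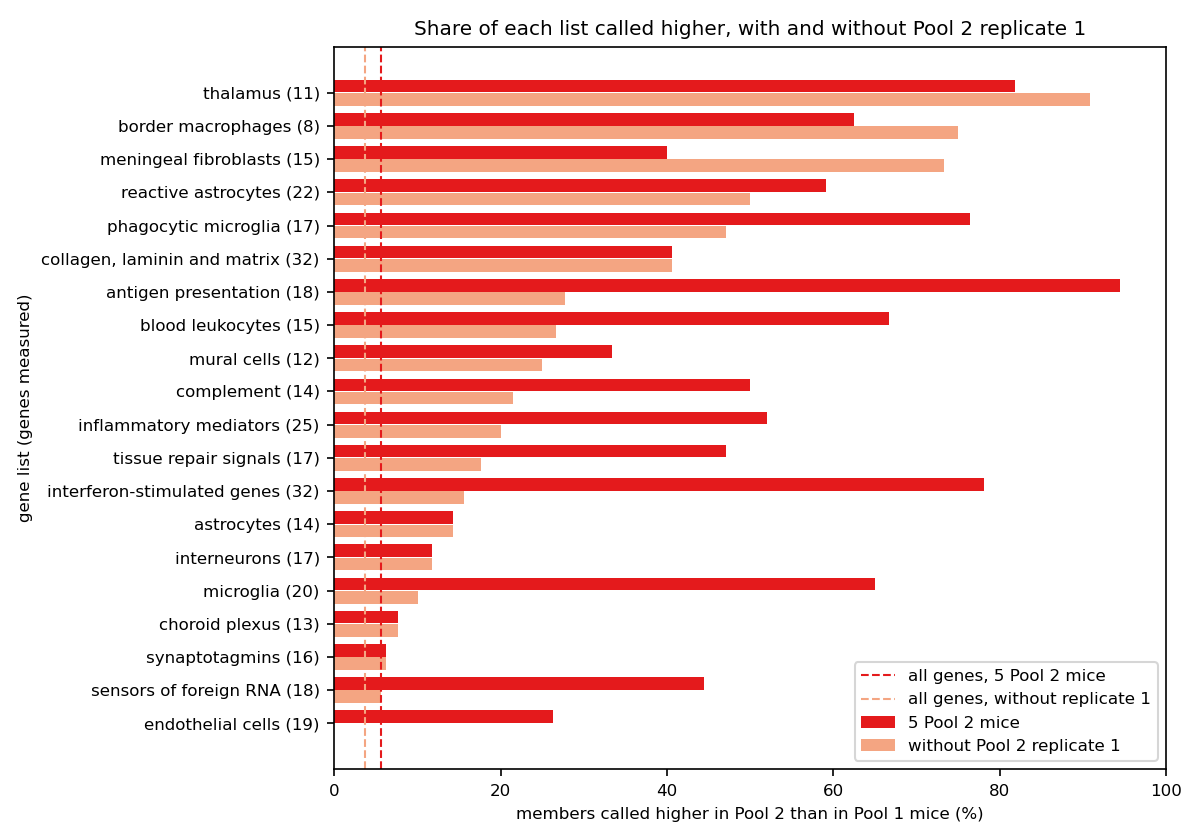
Percentage of the measured members of each list that were upregulated in Pool 2 compared with Pool 1 mice, with all 5 Pool 2 mice (red bars) and without Pool 2 replicate 1 (light bars). Dashed lines mark the share of all genes, 5.66% and 3.67%. Antigen presentation falls from 17 to 5 of 18 genes and interferon-stimulated genes from 25 to 5 of 32, while thalamus goes from 9 to 10 of 11 and meningeal fibroblasts from 6 to 11 of 15.

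Some genes did not depend on any single mouse. Of the upregulated genes, 472 were called in each of the 10 fits that left out 1 Pool 1 or Pool 2 library, and in 134 of these the lowest Pool 2 mouse also lay above the highest Pool 1 mouse. Over all genes such a separation occurred in 0.977%, or in 1.45% without Pool 2 replicate 1. Tph2, the enzyme that starts serotonin synthesis in neurons, measured 1.94, 1.52, 1.89, 1.64 and 1.66 CPM in the Pool 1 mice and 4.89, 2.69, 3.0, 4.26 and 3.82 CPM in the Pool 2 mice, in replicate order. Every Pool 2 mouse lay above every Pool 1 mouse and the log2 fold change was 1.10 (SE 0.18), or 0.99 (SE 0.18) without Pool 2 replicate 1. Control mice, at 2.38 to 3.23 CPM, lay above Pool 1 and overlapped Pool 2, with Vehicle mice at 1.73 to 2.75 CPM.

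Several genes of this stable set encode secreted or matrix proteins. A2m, alpha-2-macroglobulin, a broad protease inhibitor, measured 5.79, 5.78, 5.34, 6.42 and 7.81 CPM in the Pool 1 mice and 44.5, 22.1, 18.2, 17.2 and 11.1 CPM in the Pool 2 mice. All Pool 2 mice lay above all Pool 1 mice, with a log2 fold change of 1.86 (SE 0.34) and of 1.46 (SE 0.27) without replicate 1 (edgeR adjusted p = 0.128 and 0.109). Sparc, a matricellular glycoprotein, measured 218, 213, 214, 241 and 229.7 CPM in the Pool 1 mice and 468, 324, 301, 376 and 281 CPM in the Pool 2 mice. Its groups did not overlap either, and its log2 fold change was 0.65 (SE 0.12) (edgeR adjusted p = 0.128).

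Serpinf1, which encodes pigment epithelium-derived factor, was upregulated with a log2 fold change of 0.81 (SE 0.16), but here Pool 1 replicate 5, at 14.5 CPM, exceeded the lowest Pool 2 mouse, at 14.1 CPM. Mgst1, a microsomal glutathione transferase, had a log2 fold change of 0.71 (SE 0.15), Mamdc2 of 1.02 (SE 0.21) and the zinc-finger transcription factor Zfp521 of 0.52 (SE 0.11), and in none of these did the groups overlap. Without Pool 2 replicate 1 the same genes had log2 fold changes of 0.62, 0.90 and 0.45. Acap1, a GTPase-activating protein, and Plbd1, a lysosomal phospholipase-like protein, were nearly silent in Pool 1 mice. Acap1 had 0, 2, 1, 1 and 2 reads in the Pool 1 mice and 27, 7, 9, 8 and 6 reads in the Pool 2 mice, and Plbd1 had 1, 2, 1, 2 and 2 reads in the Pool 1 mice and 42, 17, 3, 8 and 12 reads in the Pool 2 mice, so that Pool 1 lay at or under the floor of 3 reads and no fold is given.

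Reactive astrocyte genes were upregulated with and without Pool 2 replicate 1. Of 22 genes, 13 were upregulated with all mice and 11 without that animal, and none was downregulated, against the 5.66% and 3.67% of all genes given above. The median log2 fold change of the list was 0.68, or 0.43 without replicate 1, against medians of 0.019 and 0.013 over all genes. Summed over the list, the Pool 1 mice read 771, 637, 652, 735 and 845 CPM and the Pool 2 mice 1949, 1038, 1341, 828 and 1027 CPM. Control mice spanned 735 to 1339 CPM and Vehicle mice 569 to 1042 CPM, so both reference groups overlapped each pool.

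Gfap, the intermediate filament that defines reactive astrocytes, measured 388, 432, 368, 464 and 433 CPM in the Pool 1 mice and 1401, 740.2, 836, 504 and 625 CPM in the Pool 2 mice. All Pool 2 mice lay above all Pool 1 mice, most of all replicate 1, and the log2 fold change was 0.98 (SE 0.22) with it and 0.70 (SE 0.17) without it. The exact two-sided permutation p-value of Gfap was 0.00794, the smallest that 5 mice against 5 can give, and its edgeR adjusted p was 0.196. Aspg, an asparaginase that rises in reactive astrocytes, measured 2.67, 3.05, 2.48, 3.45 and 3.99 CPM in the Pool 1 mice and 10.4, 8.06, 7.04, 6.09 and 4.42 CPM in the Pool 2 mice. Its groups were also apart, at a log2 fold change of 1.20 (SE 0.22) and of 1.03 (SE 0.21) without replicate 1.

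Cd44, the hyaluronan receptor, measured 1.54, 1.84, 0.631, 2.37 and 2.08 CPM in the Pool 1 mice and 10.01, 5.65, 4.38, 3.21 and 3.95 CPM in the Pool 2 mice, again without overlap, with a log2 fold change of 1.68 (SE 0.35). Cp, the copper-carrying ferroxidase ceruloplasmin, had a log2 fold change of 0.64 (SE 0.18) with its highest level in Pool 2 replicate 4. Lcn2, the iron-sequestering protein lipocalin 2, measured 0.0404, 0, 0, 0.0862 and 0.0831 CPM in the Pool 1 mice and 20.3, 2.92, 1.12, 0.0417 and 0.129 CPM in the Pool 2 mice. It was near 0 in Pool 1 mice and in Pool 2 replicates 4 and 5, so no fold is given. Genes of resting astrocytes differed less, with 2 of 14 upregulated in either fit, or 1 without Pool 2 replicates 1 and 4, and a median log2 fold change of 0.14. These were the water channel Aqp4, at 154, 132, 126, 153 and 109.5 CPM in the Pool 1 mice and 206, 189, 160.3, 194 and 199 CPM in the Pool 2 mice, and the gap junction gene Gjb6, with log2 fold changes of 0.49 (SE 0.13) and 0.42 (SE 0.12).

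Microglial identity genes were mostly carried by a single animal. Of 20 genes, 13 were upregulated with all mice and 2 without Pool 2 replicate 1, C1qb and Cd68. Leaving out a further mouse gave 0 (Pool 2 replicate 3) to 5 (Pool 2 replicate 4 or Pool 1 replicate 5). The median log2 fold change of the list fell from 0.52 to 0.24. The list summed to 668, 752, 689, 804 and 814 CPM in Pool 1 mice and 2408, 908, 1104, 701 and 837 CPM in Pool 2 mice. Aif1, which encodes the microglial protein IBA1, measured 5.02, 3.9, 3.83, 5.64 and 5.69 CPM in the Pool 1 mice and 29.7, 5.8, 8.0, 4.59 and 5.54 CPM in the Pool 2 mice. Only Pool 2 replicate 1 and, by less, replicates 2 and 3 exceeded the highest Pool 1 mouse, and the log2 fold change was 1.15 (SE 0.42) with all mice but 0.31 (SE 0.22), not past the threshold, without replicate 1. The exact permutation p-value of Aif1 was 0.103. C1qb, a chain of the complement initiator C1q, measured 36.6, 44.2, 44.3, 53.6 and 54.6 CPM in the Pool 1 mice and 265, 65.2, 90.1, 51.8 and 57.7 CPM in the Pool 2 mice, and Cd68, a lysosomal membrane protein, had a log2 fold change of 0.62 (SE 0.21) without replicate 1.

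More of the calls among genes of phagocytic microglia remained without that animal. Of 17 genes, 13 were upregulated with all mice and 8 without Pool 2 replicate 1 (Spp1, Gpnmb, Itgax, Clec7a, Cst7, Cd63, Ctsz and Lyz2). Spp1, osteopontin, measured 2.63, 2.65, 2.38, 2.28 and 3.57 CPM in the Pool 1 mice and 8.18, 6.54, 3.83, 23.1 and 8.63 CPM in the Pool 2 mice. The groups did not overlap, the highest animal was Pool 2 replicate 4 and not replicate 1, and the log2 fold change was 1.89 (SE 0.43) with and 1.96 (SE 0.46) without replicate 1. Lyz2, the lysozyme of myeloid cells, measured 5.34, 6.28, 5.19, 7.54 and 8.8 CPM in the Pool 1 mice and 76.1, 15.3, 18.8, 15.2 and 11.6 CPM in the Pool 2 mice. Its groups were apart too, and its log2 fold change fell from 2.04 (SE 0.49) to 1.20 (SE 0.30) when replicate 1 was left out.

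Cst7, an inhibitor of lysosomal proteases that microglia switch on around debris, had 6, 3, 3, 5 and 6 reads in the Pool 1 mice and 262, 65, 69, 28 and 11 reads in the Pool 2 mice. All Pool 2 mice lay above all Pool 1 mice, but the Pool 1 level rested on 3 to 6 reads per animal, so the log2 fold change of 4.21 (SE 0.95) is imprecise. Gpnmb, a lysosomal glycoprotein, had a log2 fold change of 0.95 (SE 0.25), with Pool 2 replicate 4 inside the Pool 1 range. Summed over the list, the 4 other Pool 2 mice read 2275 to 3043 CPM and the Pool 1 mice 2033 to 2792 CPM, so the sum did not separate the groups. By the mean log2 CPM of the list, which weighs each gene alike, the pools were apart. Pool 1 mice spanned 3.19 to 3.74 and Pool 2 mice 3.82 to 5.46. Leaving out replicate 3 as well as replicate 1 brought the calls of this list from 8 to 3, in a fit that called 3.65% of all genes.

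Antigen presentation genes were upregulated mainly through Pool 2 replicate 1. MHC class I molecules with beta-2-microglobulin display peptides from inside the cell, and class II molecules, loaded with the help of the invariant chain Cd74, display peptides taken up from outside. Of 18 genes, 17 were upregulated with all mice and 5 without Pool 2 replicate 1, and the median log2 fold change fell from 1.66 to 0.37. H2-K1, a class I heavy chain, measured 21.9, 23.2, 21.6, 24.4 and 39.2 CPM in the Pool 1 mice and 261, 35.4, 37.4, 34.5 and 28.5 CPM in the Pool 2 mice, and without replicate 1 its log2 fold change of 0.38 was not past the threshold. The same held for H2-D1, at a log2 fold change of 0.47, and for B2m, at 0.31.

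The 5 genes called without that animal were the class II genes H2-Aa, H2-Ab1 and H2-Eb1, Cd74 and the non-classical class I gene H2-T23. H2-Aa measured 0.485, 0.986, 0.631, 1.47 and 1.87 CPM in the Pool 1 mice and 162, 4.21, 2.67, 4.76 and 2.36 CPM in the Pool 2 mice. Replicate 1 was far above all other mice, and the remaining 4 Pool 2 mice still lay above every Pool 1 mouse, with a log2 fold change of 1.68 (SE 0.37) (edgeR adjusted p = 0.142). Vehicle mice, at 1.09 to 4.33 CPM, overlapped those 4 animals, and Control mice lay at 0.929 to 2.26 CPM. H2-Eb1 measured 1.21, 1.25, 0.631, 1.25 and 1.62 CPM in the Pool 1 mice and 134, 3.0, 2.17, 4.55 and 2.53 CPM in the Pool 2 mice, and its groups did not overlap either. Without replicate 1 its log2 fold change was 1.35 (SE 0.30), that of H2-Ab1 was 1.29 (SE 0.31) and that of Cd74 was 1.22 (SE 0.37). For Cd74, Pool 1 replicate 5, at 4.24 CPM, exceeded Pool 2 replicate 5, at 3.95 CPM, and without that Pool 1 mouse the calls of the list rose from 5 to 10 of 18.

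The promoters of the class II genes with an entry in RefSeq (GRCm38.p6) are shown. Each runs from 250 bases before to 50 bases after the transcription start site. Capitals mark the Y box, spelled CTGATTGG, the CCAAT-containing element of MHC promoters. Both strands were searched. The promoter of H2-Aa is at chr17:34287774-34288073 on the minus strand, where the last base of the match lies 44 bases upstream of the start site. The promoter of H2-Eb1 is at chr17:34305617-34305916 on the plus strand, with the match ending 55 bases upstream.
H2-Aa: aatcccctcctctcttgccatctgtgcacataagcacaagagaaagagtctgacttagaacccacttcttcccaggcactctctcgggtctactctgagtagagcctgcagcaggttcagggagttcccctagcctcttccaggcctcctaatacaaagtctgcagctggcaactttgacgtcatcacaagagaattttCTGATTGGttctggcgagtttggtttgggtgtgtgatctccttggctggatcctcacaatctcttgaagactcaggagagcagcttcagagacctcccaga
H2-Eb1: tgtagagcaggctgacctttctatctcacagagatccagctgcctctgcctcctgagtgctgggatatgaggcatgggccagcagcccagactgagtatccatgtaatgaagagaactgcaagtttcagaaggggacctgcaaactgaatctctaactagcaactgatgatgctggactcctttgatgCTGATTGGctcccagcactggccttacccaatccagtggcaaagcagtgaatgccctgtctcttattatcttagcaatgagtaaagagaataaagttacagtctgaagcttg
The Y box occurred in 1346 of 32851 promoter windows of this length, or 4.10%, and in the promoters of 7 of the 13 antigen presentation genes with a window (H2-Aa, H2-D1, H2-Eb1, H2-K1, H2-T23, Psmb9 and Tap1). A listed gene counted once if any of its windows matched. The 4.10% is a share of windows, which belonged to 27025 genes, and is not the same measure. A match in these letters is a description of the sequence and does not show that a factor binds there.

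Interferon-stimulated genes depended on Pool 2 replicate 1 to a similar degree. All 32 had a positive log2 fold change and 25 were upregulated with all mice, with a median log2 fold change of 1.30. Without replicate 1, 5 of the 32 were upregulated (Irf7, Ifi27l2a, Cxcl10, Gbp2 and Ifitm3) and the median was 0.43. Gbp2, a guanylate-binding protein that attacks the vacuoles of intracellular microbes, measured 3.44, 3.05, 2.38, 4.53 and 4.86 CPM in the Pool 1 mice and 93.1, 5.14, 7.83, 6.18 and 3.65 CPM in the Pool 2 mice. The 4 other Pool 2 mice overlapped the Pool 1 mice, and the log2 fold change went from 2.66 (SE 0.76) to 0.64 (SE 0.25). Cxcl10, a chemokine that draws activated T cells, measured 0.0404, 0.0897, 0.146, 0.991 and 0.208 CPM in the Pool 1 mice and 10.9, 0.935, 2.25, 1.59 and 0.258 CPM in the Pool 2 mice, with Pool 1 replicate 4 inside the Pool 2 range.

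Ifitm3, a membrane protein that blocks viral entry, had a log2 fold change of 0.57 (SE 0.25) without replicate 1, and Irf7, the factor that amplifies interferon production, of 0.68 (SE 0.31). The call on this list was not steady, since leaving out a further animal gave between 0 of 32 genes (without Pool 2 replicate 3, in a fit that called 3.65% of all genes) and 11 of 32 (without Pool 1 replicate 4, 3.42%). Sensors that detect foreign RNA followed the same course, with 8 of 18 genes upregulated with all mice and 1, Ifih1, without replicate 1. A further mouse left out gave 0 (Pool 2 replicate 3 or Pool 1 replicate 3) to 2 (Pool 2 replicate 5 or Pool 1 replicate 4). Ifih1, the helicase MDA5 that binds long double-stranded RNA, measured 4.0, 4.21, 2.86, 4.78 and 2.53 CPM in the Pool 1 mice and 10.2, 4.21, 5.75, 4.97 and 4.98 CPM in the Pool 2 mice. Apart from replicate 1 the Pool 2 mice spanned 4.21 to 5.75 CPM and the Pool 1 mice 2.53 to 4.78 CPM, which overlap, and the log2 fold change was 0.43 (SE 0.18) in that fit.

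The promoters of Gbp2 and Cxcl10, whose list also rose mainly in Pool 2 replicate 1, are shown in the same way. Capitals mark the core of the interferon-stimulated response element, spelled GAAA, any 2 bases and GAAA, on either strand. The promoter of Gbp2 is at chr3:142620413-142620712 on the plus strand, and that of Cxcl10 is at chr5:92348840-92349139 on the minus strand. The last base of the match lies 50 bases upstream of the start site in Gbp2, where the element reads in the reverse direction, and 204 bases upstream in Cxcl10.
Gbp2: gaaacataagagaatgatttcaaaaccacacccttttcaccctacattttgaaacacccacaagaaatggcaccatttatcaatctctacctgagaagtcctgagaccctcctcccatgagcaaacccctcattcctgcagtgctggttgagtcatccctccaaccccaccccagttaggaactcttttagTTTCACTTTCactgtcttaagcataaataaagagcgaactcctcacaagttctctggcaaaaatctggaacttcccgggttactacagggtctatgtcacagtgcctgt
Cxcl10: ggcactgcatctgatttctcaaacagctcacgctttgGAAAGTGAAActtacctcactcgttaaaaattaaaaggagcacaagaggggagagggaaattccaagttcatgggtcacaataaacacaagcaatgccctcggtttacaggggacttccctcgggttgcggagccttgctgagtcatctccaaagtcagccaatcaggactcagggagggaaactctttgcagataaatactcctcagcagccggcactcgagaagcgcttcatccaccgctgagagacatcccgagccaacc
These letters occurred in 1131 of the 32851 windows, or 3.44%, and in the promoters of 16 of the 22 interferon-stimulated genes with a window. The background is again a share of windows, and the list a share of genes. The antigen presentation genes held them in 2 of 13 cases, B2m and H2-T23.

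Inflammatory mediators and complement were intermediate. Of 25 mediators, 13 were upregulated with all mice and 5 without Pool 2 replicate 1 (Ccl2, Ccl3, Icam1, Socs3 and Tnfrsf1a), or 3 when Pool 2 replicate 2 or Pool 1 replicate 3 was left out too. Socs3, the feedback inhibitor of cytokine receptors, measured 0.930, 0.897, 0.728, 0.646 and 1.37 CPM in the Pool 1 mice and 4.39, 1.64, 2.0, 1.5 and 1.42 CPM in the Pool 2 mice, without overlap, and its log2 fold change went from 1.25 (SE 0.30) to 0.83 (SE 0.25). Tnfrsf1a, a receptor of tumour necrosis factor, had a log2 fold change of 0.43 (SE 0.15) without replicate 1, with Pool 1 replicate 5 inside the Pool 2 range. The monocyte chemokine Ccl2 had 4, 1, 1, 1 and 2 reads in the Pool 1 mice and 52, 6, 4, 9 and 4 reads in the Pool 2 mice, and the chemokine Ccl3 had 2, 6, 1, 6 and 5 reads in the Pool 1 mice and 27, 16, 27, 4 and 7 reads in the Pool 2 mice, levels too low for a precise fold.

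Of 14 complement genes, 7 were upregulated with all mice and 3 without replicate 1, or 5 when Pool 1 replicate 2 was left out too. Serping1, the inhibitor of the C1 proteases, measured 6.67, 4.35, 5.1, 6.42 and 12 CPM in the Pool 1 mice and 25.7, 13.2, 10.5, 20.03 and 10.9 CPM in the Pool 2 mice. Pool 1 replicate 5 lay inside the Pool 2 range, and the log2 fold change was 1.22 (SE 0.30) with and 0.99 (SE 0.28) without replicate 1. C1s1, a C1 protease, had 1.54 (SE 0.41) and 0.84 (SE 0.31), without overlap between the groups. C4b, at 39.3, 80.1, 40.8, 70.9 and 62.9 CPM in the Pool 1 mice and 374, 92.5, 109, 63 and 72.8 CPM in the Pool 2 mice, was not past the threshold without replicate 1, at a log2 fold change of 0.52.

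Markers of cells from outside the hippocampal tissue proper did not all follow the same mice. By summed level, the leukocyte and red cell lists were highest in Pool 2 replicate 1, and the border macrophage list in Pool 2 replicate 2. Of 15 blood leukocyte genes, 10 were upregulated with all mice and 4 without Pool 2 replicate 1. The 4 became 2 without Pool 2 replicate 2 or Pool 1 replicate 2 and 1 without Pool 1 replicate 5. The summed level was 4.81, 4.93, 5.19, 7.11 and 3.61 CPM in Pool 1 and 42.3, 10.8, 9.88, 8.05 and 7.39 CPM in Pool 2 mice. Ptprc, the CD45 phosphatase of all leukocytes and microglia, had a log2 fold change of 1.29 (SE 0.34) and of 0.69 (SE 0.21) without replicate 1. The T cell coreceptor gene Cd8a had 1, 0, 1, 4 and 0 reads in the Pool 1 mice and 40, 6, 12, 1 and 1 reads in the Pool 2 mice. The neutrophil and monocyte genes S100a8 and S100a9 had 0 to 3 reads in each Pool 1 mouse, and 2 to 19 and 4 to 19 reads in the Pool 2 mice. Their part in the immune results was not tested.

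Border macrophages, which line vessels and meninges, gave 6 of 8 genes without replicate 1 and 5 with it. The 6 became 3 when Pool 2 replicate 2 was left out too, and 8 when Pool 2 replicate 3 was. Mrc1, their mannose receptor, measured 2.23, 1.03, 2.33, 1.64 and 2.08 CPM in the Pool 1 mice and 2.92, 3.47, 2.12, 5.76 and 4.04 CPM in the Pool 2 mice. Pool 2 replicate 4 was the highest and replicate 3 lay within the Pool 1 range, and the log2 fold change was 0.98 (SE 0.25) and 1.05 (SE 0.26) in the 2 fits. F13a1, coagulation factor XIII, had log2 fold changes of 0.93 (SE 0.30) and 1.06 (SE 0.30), the scavenger receptor Stab1 of 0.36 (SE 0.12) and 0.39 (SE 0.12), and Ms4a7 of 2.05 (SE 0.55) and 1.25 (SE 0.47). Red cell genes were upregulated in 3 of 6 cases with all mice and in 0 without replicate 1, or 1 when Pool 1 replicate 3 was left out too. Hbb-bs measured 32.6, 39, 46.7, 29.3 and 49.9 CPM in the Pool 1 mice and 140.2, 73.6, 40.3, 38.2 and 43.4 CPM in the Pool 2 mice, which puts replicate 1 highest, followed by replicate 2, and Hba-a1 had log2 fold changes of 0.68 (SE 0.29) and 0.35 (SE 0.25).

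Thalamus marker genes had the largest share of calls of the 47 lists once Pool 2 replicate 1 was left out. Of 11 genes, 10 were upregulated, Prkcd, Tcf7l2, Slc17a6, Lef1, Rgs16, Ramp3, Tnnt1, Synpo2, Ntng1 and Shox2, and 9 were with all mice. The median log2 fold change was 1.60 without and 1.37 with replicate 1. Shox2, a homeobox factor of thalamic relay neurons, measured 0.688, 0.0448, 0.194, 0.517 and 0.498 CPM in the Pool 1 mice and 0.183, 8.88, 2.96, 18.9 and 2.32 CPM in the Pool 2 mice. Replicates 2 to 5 lay above all Pool 1 mice while replicate 1 lay among them, and the log2 fold change without replicate 1 was 4.36 (SE 0.86) (edgeR adjusted p = 0.142).

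The Wnt-responsive factors of this list showed the same order of animals. Lef1 measured 4.69, 2.73, 3.3, 3.27 and 3.82 CPM in the Pool 1 mice and 5.26, 8.61, 6.62, 16.4 and 5.8 CPM in the Pool 2 mice, and Tcf7l2 measured 6.47, 4.04, 3.69, 5.56 and 3.45 CPM in the Pool 1 mice and 7.4, 31.6, 13.3, 43.5 and 9.15 CPM in the Pool 2 mice. In each, replicate 4 was the highest, then replicates 2 and 3, and no Pool 2 mouse fell below the highest Pool 1 mouse. The log2 fold changes without replicate 1 were 1.39 (SE 0.26) and 2.39 (SE 0.48). Tnnt1, a troponin gene, measured 2.06, 1.21, 0.776, 1.16 and 1.66 CPM in the Pool 1 mice and 1.23, 12.5, 4.54, 27.8 and 2.92 CPM in the Pool 2 mice, and Rgs16, a regulator of G-protein signalling, had a log2 fold change of 1.60 (SE 0.32) in this fit. Synpo2, an actin-binding protein, had 1.78 (SE 0.36).

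The list summed to 242, 191, 198, 210.4 and 203 CPM in Pool 1 and 189, 435, 309.6, 680.1 and 229.5 CPM in Pool 2 mice. Control mice spanned 182 to 353 CPM, with Control replicate 4 at the top, and Vehicle mice 231 to 244 CPM. Of the Pool 2 mice, replicates 2, 3 and 4 stood above Pool 1 by this sum. Replicate 5 lay within the range of the Pool 1 mice, and replicate 1 lay just below it. By the mean log2 CPM of the list, which weighs each gene alike, replicate 5, at 3.53, stood above the Pool 1 mice, at 2.46 to 3.04. Replicate 1, at 2.73, lay among them. Leaving out replicate 4 in addition still gave 9 of 11 genes, in a fit that called 2.46% of all genes. Whether thalamic tissue in the dissected samples plays a part in this result was not tested. Several of the genes were also read in every Pool 1 mouse, led by Ptpn3, at 86.0 to 109 CPM, Prkcd and Ntng1, and Ptpn3 was not called in either fit.

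Of the 8 leading coding genes without replicate 1, Tph2 and A2m, described above, were highest in replicate 1 of the Pool 2 mice, and the other 6, Lef1 among them, were highest in replicate 4 and lowest in replicate 1. Syt9, a calcium sensor of vesicle release, measured 2.87, 3.32, 1.89, 3.58 and 2.99 CPM in the Pool 1 mice and 4.3, 11, 9.04, 15.1 and 7.09 CPM in the Pool 2 mice, with a log2 fold change of 1.85 (SE 0.31) without replicate 1. Patj, a scaffold of cell polarity, measured 6.63, 5.2, 4.17, 4.78 and 4.44 CPM in the Pool 1 mice and 6.9, 17.8, 10.2, 33.3 and 9.45 CPM in the Pool 2 mice and had 1.81 (SE 0.32). Neither gene overlapped Pool 1. Nexn, an actin-binding protein, had 1.86 (SE 0.36), the opsin gene Opn3 1.87 (SE 0.36) and the transcriptional coregulator Cited1 1.55 (SE 0.31). The edgeR adjusted p-value was 0.0911 for Syt9, Patj, Nexn, Opn3, Lef1 and Tph2 in this fit and 0.109 for Cited1.

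Further genes were named after their values were seen. Zic1, a zinc-finger factor of medial thalamus and meninges, had means of 10.3 CPM in Pool 1 and 42.9 CPM in Pool 2 mice without replicate 1, at a log2 fold change of 2.06 (SE 0.38). Tafa4 had a log2 fold change of 3.38 (SE 0.68) from a Pool 1 mean of 0.252 CPM. Chrna6 and Pou4f1, genes of the neighbouring habenula, were also called but were at or under the floor of 3 reads in the average Pool 1 mouse. The list of neocortex genes gave 2 of 7 in this fit, between 1 (without Pool 2 replicate 4 or Pool 1 replicate 5) and 4 (without Pool 1 replicate 1) when a further mouse was left out. These were Foxp2, at a log2 fold change of 1.70 (SE 0.37), and Rorb, at 0.36 (SE 0.12), which are also expressed in thalamus. Of the genes with an adjusted DESeq2 p-value under 0.05, 53 were common to both fits, 46.1% of the 115 and 70.7% of the 75. All 53, of 25190 genes tested, were higher in Pool 2 mice and were upregulated in both edgeR fits. They held 5 of 11 thalamus, 3 of 22 reactive astrocyte and 3 of 17 phagocytic microglia genes. They also held 1 of 32 matrix and 0 of 18 antigen presentation genes. Membership was counted for these lists only, not for all 47.

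**Figure D4:**
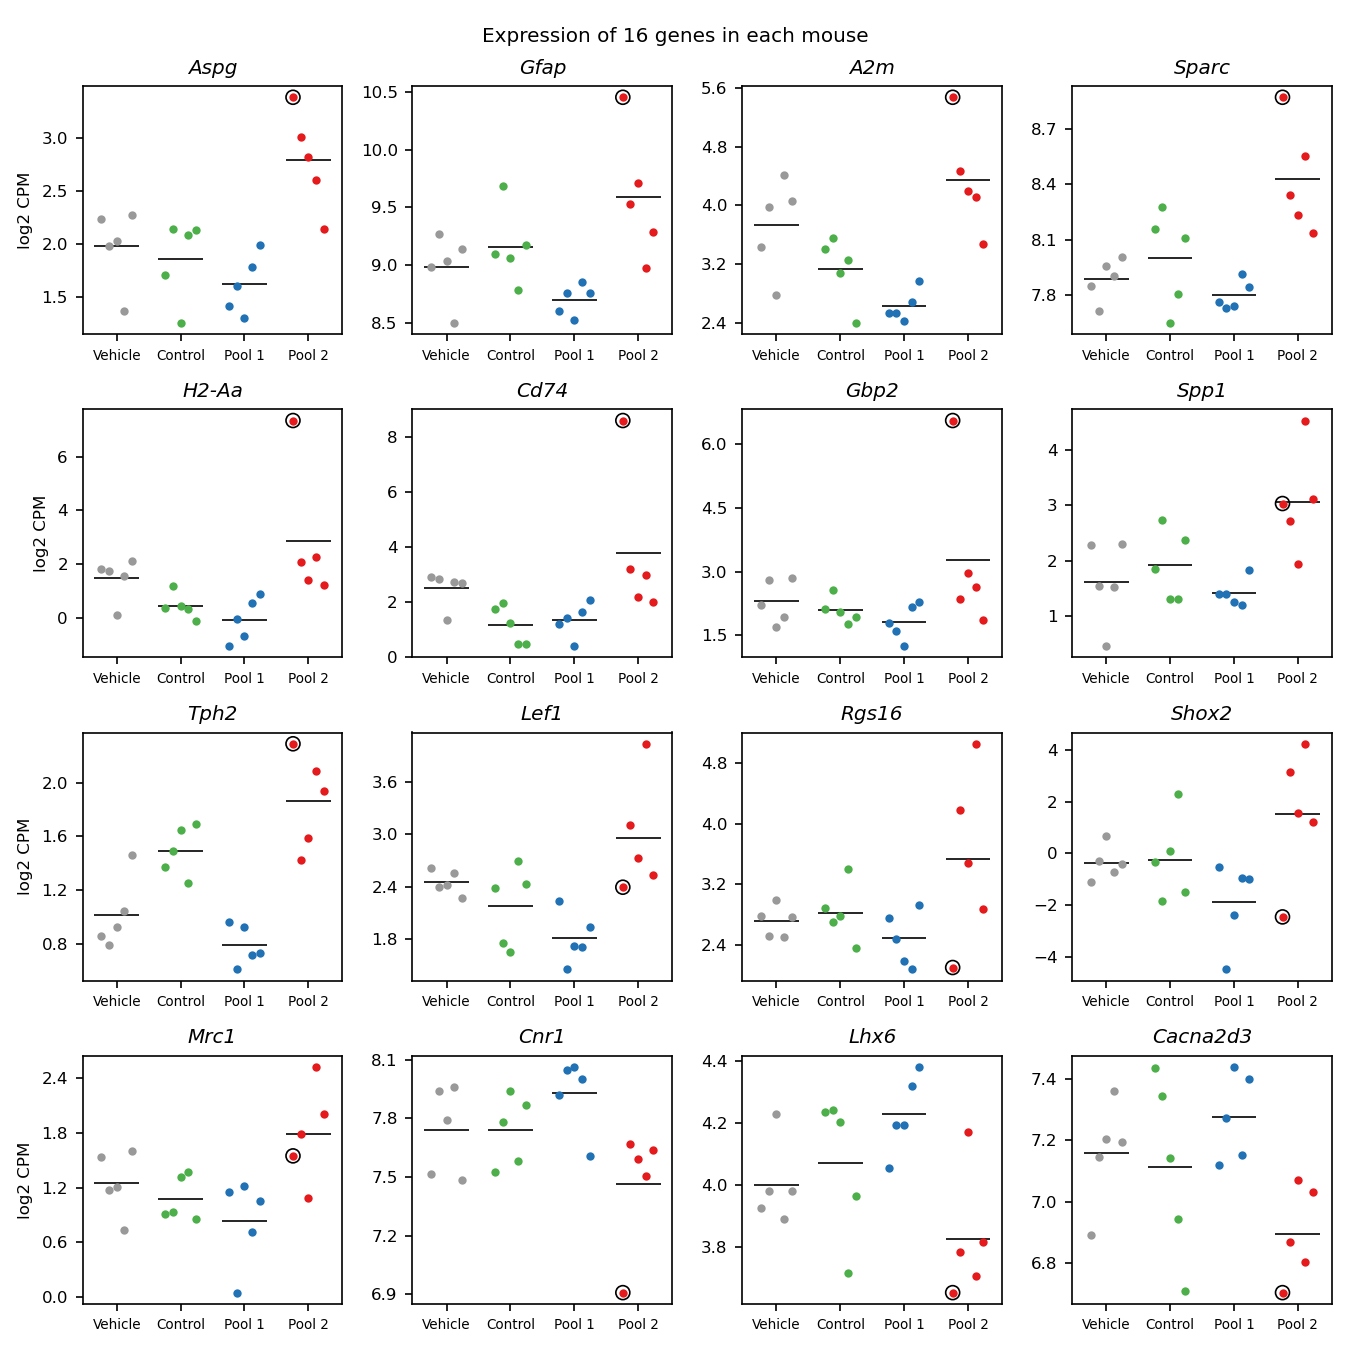
Level of 16 genes in each mouse as log2 CPM, with 5 mice in each of Vehicle, Control, Pool 1 and Pool 2 in replicate order and a line at the mean of the plotted log2 values of each group. Pool 2 replicate 1 is circled. Aspg, Gfap, A2m, Sparc and Tph2 are separated between the pools in all mice, H2-Aa, Cd74 and Gbp2 are dominated by the circled mouse, and Shox2 and Rgs16 are highest in Pool 2 replicates 2 to 4 and low in the circled mouse.

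Meningeal and matrix genes made up the remaining large group. Meningeal fibroblasts build the sheath over the brain and produce collagens, retinoic acid and growth factors. Of 15 of their genes, 11 were upregulated without Pool 2 replicate 1 and 6 with all mice, and all 15 had a positive log2 fold change in either fit. The sum was 76, 53.8, 58.3, 59.6 and 144 CPM in Pool 1 and 74.7, 129, 76.2, 250.2 and 144 CPM in Pool 2 mice. Pool 2 replicates 2, 4 and 5 and Pool 1 replicate 5 stood high. The calls rested on Pool 2 replicate 4, since without it and replicate 1 there was 1 call among the 15 genes, whereas without Pool 2 replicate 3 and replicate 1 all 15 were called. Leaving out Pool 2 replicate 5 or Pool 1 replicate 1, 2, 3 or 4 instead gave 6 or 7.

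Dcn, the small proteoglycan decorin, measured 5.99, 7.4, 6.45, 6.89 and 24.3 CPM in the Pool 1 mice and 8.46, 22.4, 10.7, 40.1 and 22.5 CPM in the Pool 2 mice. Pool 1 replicate 5 lay among the Pool 2 mice, and the log2 fold change without replicate 1 was 1.22 (SE 0.56). Igf2, insulin-like growth factor 2, measured 0.566, 0.493, 0.679, 0.259 and 0.498 CPM in the Pool 1 mice and 0.640, 1.17, 0.958, 1.59 and 1.38 CPM in the Pool 2 mice, with a log2 fold change of 1.34 (SE 0.49) in that fit, where the groups did not overlap. The calcification inhibitor Mgp had 0.77 (SE 0.29), the retinoic acid carrier Crabp2 1.09 (SE 0.42) and Islr 0.64 (SE 0.25). Whether meningeal tissue in the samples plays a part in these results was not tested.

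Collagen, laminin and other matrix genes had 13 of 32 upregulated in either fit, the same 13 genes in both, with a median log2 fold change of 0.42 and 0.40. Without a further mouse the 13 became 5 (Pool 2 replicate 4) or 8 (Pool 2 replicate 2 or Pool 1 replicate 2, 3 or 4). The sum over the 32 genes separated the pools, at 799.5, 711, 706, 716 and 723 CPM in Pool 1 and 1139, 918, 834, 986 and 847 CPM in Pool 2 mice. That separation depended on Sparc, described above, which gave 213 to 241 CPM of the Pool 1 sums and 281 to 468 CPM of the Pool 2 sums. With Sparc taken out, Pool 1 replicate 1 lay above Pool 2 replicates 3 and 5. The mean log2 CPM of the list, which weighs each gene alike, did separate the pools. Pool 1 spanned 3.19 to 3.44 and Pool 2 spanned 3.56 to 3.88. Bgn, the proteoglycan biglycan, measured 14.4, 11.6, 14.2, 13.1 and 17.4 CPM in the Pool 1 mice and 23.3, 17.5, 19.2, 23.8 and 20.4 CPM in the Pool 2 mice, and Nid1, the basement membrane linker nidogen, measured 7.73, 6.37, 5.58, 6.89 and 6.73 CPM in the Pool 1 mice and 10.4, 9.27, 8.0, 10.8 and 9.84 CPM in the Pool 2 mice. Neither overlapped, and the log2 fold changes were 0.56 (SE 0.13) and 0.53 (SE 0.14). Col1a2, a chain of type I collagen, had 1.01 (SE 0.28) with its highest level, 30.9 CPM, in Pool 2 replicate 4.

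Tissue repair signals gave 8 of 17 genes with all mice and 3 without replicate 1. The 3 became 1 when Pool 2 replicate 4 or Pool 1 replicate 3 was left out too, and 8 when Pool 1 replicate 5 was. Tgfbr2, a receptor of transforming growth factor beta, measured 18.2, 18, 15.2, 19.6 and 19.97 CPM in the Pool 1 mice and 38.4, 22, 24.5, 21.4 and 24.8 CPM in the Pool 2 mice without overlap, at log2 fold changes of 0.52 (SE 0.14) and 0.35 (SE 0.11). Thbs2, thrombospondin 2, had 0.56 (SE 0.20) and the matrix protein Tgfbi 0.54 (SE 0.25) without replicate 1. Mural cell genes, from the muscle and pericytes of vessel walls, gave 4 of 12 and then 3, the contractile genes Acta2, Tagln and Des, or 1 without Pool 2 replicate 4 and 5 without Pool 1 replicate 5. Acta2, smooth muscle actin, measured 12.1, 8.47, 6.84, 8.14 and 16.6 CPM in the Pool 1 mice and 17.8, 13.1, 18.3, 48.7 and 20.2 CPM in the Pool 2 mice, with Pool 2 replicate 4 far above the others and a log2 fold change of 1.26 (SE 0.46) without replicate 1. Tagln had 0.97 (SE 0.37) and Des 0.84 (SE 0.26). Endothelial genes gave 5 of 19 with all mice and 0 without replicate 1 (3 when Pool 1 replicate 1 was left out too), where Eng had 0.38 (SE 0.18) and Vwf 0.55 (SE 0.27).

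Genes of interneurons were called in both directions. Of 17 interneuron genes, 3 were downregulated in both fits, Lhx6, Cnr1 and Htr3a, and 2 were upregulated, Calb2 and Chodl, against 1.16% of all genes downregulated with all mice and 1.06% without Pool 2 replicate 1. The 2 upregulated genes became 1 in 6 of the 9 fits that left out a further mouse (Pool 1 replicate 2, 3 or 5 or Pool 2 replicate 2, 3 or 4). Cnr1, the cannabinoid receptor of cholecystokinin interneurons, measured 242, 265, 267, 256 and 195 CPM in the Pool 1 mice and 120.1, 203, 193, 182 and 199 CPM in the Pool 2 mice. Pool 2 replicate 1 was the lowest of the 10 mice, Pool 1 replicate 5 lay among the Pool 2 mice, and the log2 fold change was −0.45 (SE 0.13) and −0.34 (SE 0.11) in the 2 fits. Lhx6, the transcription factor of interneurons from the medial ganglionic eminence, measured 16.6, 18.3, 18.3, 19.9 and 20.8 CPM in the Pool 1 mice and 12.6, 13.8, 18, 13.1 and 14.1 CPM in the Pool 2 mice, with Pool 2 replicate 3 inside the Pool 1 range and log2 fold changes of −0.39 (SE 0.11) and −0.35 (SE 0.12).

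Htr3a, the ion-channel receptor of serotonin, had log2 fold changes of −0.54 (SE 0.19) and −0.40 (SE 0.17). Calb2, calretinin, is also a gene of thalamus and habenula, and Chodl had 0 to 3 reads in each Pool 1 mouse. Syt2 and Pvalb did not pass the threshold between the pools. For Syt2 the study compared each pool with Control mice and reported a rise in both, a comparison not made here. Syt2, the calcium sensor of parvalbumin terminals, measured 20.02, 39.2, 26.2, 34.3 and 36.6 CPM in the Pool 1 mice and 25.1, 26.8, 21, 29.1 and 48.5 CPM in the Pool 2 mice, ranges that overlap. Its log2 fold change was −0.05 (SE 0.22) with all mice and 0.00 (SE 0.24) without replicate 1, and its exact permutation p-value was 0.794. Pvalb, parvalbumin, measured 18.2, 29.2, 24, 25.8 and 32.6 CPM in the Pool 1 mice and 34.6, 19.1, 23.6, 29.2 and 30.6 CPM in the Pool 2 mice, with a log2 fold change of 0.08 (SE 0.21) and an exact permutation p-value of 0.714.

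Of 16 synaptotagmins only Syt9, described above, was called. Vesicle fusion and priming genes gave Unc13c of 18 with all mice, and Unc13c and Rims3 without replicate 1, at log2 fold changes of 0.83 (SE 0.30) and 0.64 (SE 0.22), and 0 when Pool 2 replicate 4 was left out too. GABA-A receptor subunits gave Gabra6 of 15, and Gabrq in addition without replicate 1, at 1.37 (SE 0.62) and 1.47 (SE 0.66), and 0 when Pool 2 replicate 2, 4 or 5 or Pool 1 replicate 4 was left out too. Glutamate receptors gave Grm4 of 23 in either fit, at 0.76 (SE 0.22), with replicate 4 the highest. Voltage-gated calcium channels gave 1 of 16, downregulated. This was Cacna2d3, an auxiliary subunit that sets channel number, at 139, 155, 174, 142 and 169 CPM in the Pool 1 mice and 104, 117, 134, 112 and 131 CPM in the Pool 2 mice, groups that did not overlap, with a log2 fold change of −0.38 (SE 0.12) and of −0.33 (SE 0.12) without replicate 1.

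Pyramidal and granule cell genes varied between the mice of a pool. All 8 CA1 genes had a negative log2 fold change, with a median log2 fold change of −0.44, and only Ndst4, a heparan sulfate sulfotransferase, was called, with all mice, at −0.56 (SE 0.26). The CA1 sums were 541, 1368, 1167, 992 and 1183 CPM in Pool 1 and 967, 519, 692, 601 and 1112 CPM in Pool 2 mice, which overlap. The 13 dentate genes all had a positive log2 fold change and 0 were called. Without Pool 1 replicate 1, whose dentate sum of 1519 CPM was the highest of the 10 mice, and without Pool 2 replicate 1, 6 were upregulated, at 4.03% of all genes. CA2 and CA3 genes gave Pcp4 of 10 with all mice, and Pcp4 and Coch without replicate 1, at log2 fold changes of 0.75 (SE 0.20) and 1.01 (SE 0.39), or 1 of them when Pool 2 replicate 4 was left out too.

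Many lists had no or almost no call. None was called in either fit among 26 activity-induced genes, 17 circadian clock genes, 22 potassium channels, 18 neuropeptides and secretogranins, 17 genes of small RNA processing, 16 of cholesterol synthesis, 15 of oligodendrocytes, 9 of ependyma, 13 encoded in mitochondria, 81 of the nuclear-encoded respiratory chain and 6 abundant RNAs without a tail. Small RNA processing, which includes the Argonaute proteins and Dicer, had a median log2 fold change of −0.02 and 0.01. Cholesterol synthesis had a negative log2 fold change in all 16 genes with all mice and in 14 without replicate 1. The medians were −0.22 and −0.16. With all mice, 6 of the 16 genes had an edgeR p under 0.05, against 2146 of all 25190 genes. None was called, since the lowest log2 fold change, −0.28, did not reach the limit of 0.3. Without replicate 1, 1 of the 16 genes had an edgeR p under 0.05, against 1388 of all genes. A call with all mice and none without replicate 1 was made in oligodendrocyte precursors (Bmp4 of 10, log2 fold change 0.57 (SE 0.23)), glucocorticoid-responsive genes (Mt1 of 17, 0.37 (SE 0.17)) and cytosolic ribosomal proteins (Rpl11 of 84, 0.30 (SE 0.14)).

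Lists with a call in both fits were choroid plexus (Otx2 of 13, log2 fold change 1.66 (SE 0.61) without replicate 1), newborn neurons (Igfbpl1 of 6, 0.99 (SE 0.44)), heat shock proteins (Hspb8 of 17, 0.51 (SE 0.17)) and cell division. Cell division gave 3 of 17 with all mice and 1 without replicate 1, Cdk1, the kinase of mitotic entry, at 0.80 (SE 0.36). The call among newborn neurons was absent from 5 and that of cell division from 6 of the 9 fits that left out a further mouse, among them those without Pool 2 replicate 2 or 3. Of 3 replication-dependent histone genes, Hist1h2bp was downregulated without replicate 1 on 0 to 4 reads per mouse. Choroid plexus RNA varied far more between mice than between pools, with sums of 261, 619, 524, 380.3 and 377 CPM in Pool 1 and 283, 555, 2284, 448 and 387 CPM in Pool 2 mice.

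Downregulated genes were fewer. Their median absolute log2 fold change was 0.734 with all mice, against 0.998 for upregulated genes. Without Pool 2 replicate 1 it was 1.18 against 1.00, so the order of the medians differed between the fits. Genes called downward without that animal were low, with a median level of 0.304 CPM over the 20 libraries, against 1.29 CPM for those called upward. Of these 266 genes, 127 reached a mean normalized count of 10, and the folds of low genes are imprecise. Of the 292, 65 were called in all 10 fits that left out a library, and in 21 of these the groups did not overlap, against 0.433% of all genes, or 0.639% without Pool 2 replicate 1. Myo16, an unconventional myosin of neurons, measured 24, 24.8, 25.5, 26 and 26.5 CPM in the Pool 1 mice and 14.7, 19.7, 18.1, 19.2 and 20.3 CPM in the Pool 2 mice. All Pool 2 mice lay below all Pool 1 mice, and the log2 fold change was −0.46 (SE 0.11) with and −0.39 (SE 0.11) without replicate 1. Stum measured 695, 950.5, 871, 735 and 874 CPM in the Pool 1 mice and 669, 587, 677, 553 and 691 CPM in the Pool 2 mice, again without overlap, with a log2 fold change of −0.38 (SE 0.11). Crym, which binds thyroid hormone in the cytosol, had −0.43 (SE 0.12), through higher levels in Pool 1 replicates 2 to 5, while Pool 1 replicate 1 lay within the Pool 2 range.

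Itprid1 had a log2 fold change of −0.76 (SE 0.19), Tmem121b of −0.35 (SE 0.10) and the transcriptional regulator Mn1 of −0.35 (SE 0.10), without overlap in any of the 3 genes. Dnah9, an axonemal dynein heavy chain, had −0.47 (SE 0.13) with overlap. Neurl1b, a ubiquitin ligase of Notch signalling, and Foxo6, a forkhead factor of the hippocampus, led without replicate 1, at −0.40 (SE 0.10) and −0.68 (SE 0.20). The smallest edgeR adjusted p-value among these downregulated coding genes was 0.21, shared by Myo16 and Itprid1 with all mice.

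RNAs of other types were among the leading genes too. Dlx1as, an antisense RNA at the Dlx1 homeobox gene of forebrain interneurons, measured 8.17, 8.79, 9.17, 6.33 and 7.89 CPM in the Pool 1 mice and 4.71, 6.19, 5.67, 5.47 and 5.76 CPM in the Pool 2 mice, below Pool 1 in all Pool 2 mice, at a log2 fold change of −0.54 (SE 0.13). Sox1ot had −0.42 (SE 0.13) and Gm35558 −0.53 (SE 0.17), while Gm15675 and Gm49032 led without replicate 1, at −0.88 (SE 0.28) and −0.87 (SE 0.28). Of the upregulated ones, Gm43398 measured 2.02, 1.12, 1.5, 0.819 and 0.831 CPM in the Pool 1 mice and 2.38, 7.63, 4.08, 12.2 and 3.09 CPM in the Pool 2 mice, with the highest level in replicate 4 as for the thalamus genes, and Gm19461 had 1.63 (SE 0.47) without replicate 1. H2-K2 had 0.84 (SE 0.21). Pcna-ps2 had 4, 3, 5, 9 and 4 reads in the Pool 1 mice. In the Pool 2 mice it had 68, 69, 8, 7 and 8 reads. Pool 2 replicates 3 to 5 lay within the Pool 1 range in CPM, so its log2 fold change of 2.60 (SE 0.65) is imprecise. Both genes resemble others, so reads may be split between copies.

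The reference groups placed the difference between the pools. For the 1426 upregulated genes, the Control mean of log2 CPM lay nearer the Pool 1 than the Pool 2 mean in 72.7%, against 51.8% of all genes, and it lay between them in 77.1%, against 35.2%. The Vehicle mean lay between them in 85.7%, against 37.1%, and since these genes were chosen for a gap between the pools, a reference mean is more likely to fall inside it. Without Pool 2 replicate 1, the Control mean was nearer Pool 1 in 68.3% of the 924 genes, against 50.2% of all genes. The Vehicle mean was nearer Pool 1 in 47.2% of the 1426 genes, against 49.6% of all genes, and in 47.6% of the 924, against 47.5%. For the 292 downregulated genes, the Control mean was nearer Pool 1 in 47.9% and the Vehicle mean in 53.4%. Control mice were thus closer to Pool 1 in most upregulated genes, whereas Vehicle mice were about as often closer to either pool.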

How the data were processed

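Bulk RNA was measured in the hippocampus of 20 mice, 5 in each of 4 groups, assigned by the treatment in the sample labels. The authors made stranded poly(A) libraries, aligned reads with STAR to GRCm38 (mm10), summed the sequencing rounds and deposited raw counts of 25190 genes, none with a total under 10. The unit of the deposited values is the count, without normalization. FastQC 0.11.5 is named in the submitters' processing notes. Of the deposited names, 15 had been turned into dates and were restored from their Ensembl identifiers.

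After TMM scaling, edgeR 4.0.16 (robust quasi-likelihood fit and test, R 4.3.3) was run over the 4 groups together, with Benjamini-Hochberg adjustment over all genes, and the fit was repeated without Pool 2 replicate 1. CPM uses the TMM factors, and log2 CPM a prior count of 2. Standard errors (SE) are those of the log2 fold change. Single-gene permutation tests (SciPy) on log2 CPM were exact and two-sided. A library's floor was taken as 3 counts. Intervals of counting error are not given, since mice of a group spread more widely: chi-square divided by its degrees of freedom was 7.59 to 60.9 for pairs of replicates, so no library was a repeat of another.

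Gene members and the 47 lists (865 measured genes) were chosen with earlier results of these data known, and a list is described by its counts and its median, with no test. Named genes were, in each fit and among calls whose mean normalized count reached 10, the 8 coding genes higher and 8 lower with the smallest p-value and the 3 higher and 3 lower of other types. Up to 4 members of each list called without replicate 1 (or 2 called with all mice, where there were none), any gene with an adjusted p-value under 0.05 and the 10 stable, non-overlapping genes of smallest p-value were added, as were Syt2, Pvalb, Gfap and Aif1. Further list members were named after their values were seen. A gene that the rule names is not reported here. Names of genes that share reads with close copies are uncertain. Promoters are from a set of RefSeq windows (GRCm38.p6), and the set held 13 of the 18 antigen presentation and 22 of the 32 interferon-stimulated genes. Alternatives were DESeq2 1.42.0, its size factors in edgeR, filters on low counts, fits of the pools alone, the default spread, the replicate number as a block, leaving out each library, and 18 libraries. The edgeR and DESeq2 tests were checked on simulated counts.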

Additional observations from a re-analysis of the deposited data

Results flagged for a closer look

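In 17 of 94 sums of a list over the mice of a group, 1 mouse lay further from its nearest neighbour than the 95% critical value of Dixon's test allows for 5 animals. Chance alone would flag about 1 in 20. Pool 2 replicate 1 was the highest Pool 2 mouse for microglia (2408 CPM), inflammatory mediators (327 CPM), interferon-stimulated genes (882 CPM), antigen presentation (2291 CPM), complement (528 CPM), blood leukocytes (42.3 CPM), endothelial cells (654.5 CPM), tissue repair signals (291 CPM) and activity-induced genes (1443 CPM), and the lowest for interneurons (1033 CPM). Pool 2 replicate 3 was the highest for choroid plexus (2284 CPM) and for heat shock proteins (4681 CPM). Among Pool 1 mice, replicate 5 was the highest for meningeal fibroblasts (144 CPM) and ependyma (70.5 CPM), and replicate 1 for collagen, laminin and matrix genes (799.5 CPM), dentate granule cells (1519 CPM) and replication-dependent histones (0.364 CPM).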

How the results depend on the processing

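With all mice, 1426 upregulated and 292 downregulated genes became 928 upregulated under filterByExpr and 154 downregulated when a mean normalized count of 10 was required. Leaving out each library in turn gave 924 (without Pool 2 replicate 1) to 1635 (without Pool 1 replicate 5) upregulated and 209 to 432 downregulated genes, and 0 to 1 gene at an adjusted p-value under 0.05, against 0 with all mice, where DESeq2 gave 115. Without Pool 2 replicate 1, 924 upregulated genes became 532 under the latter filter, and 266 downregulated genes became 142 under filterByExpr. Leaving out a further library gave 620 to 1104 upregulated and 208 to 411 downregulated genes. Genes at an adjusted p-value under 0.05, 0 in this fit, numbered 75 with DESeq2, 4 with only the pools in the fit, 14 with the default estimate of the spread, 2 with the replicate block, and 0 to 33 when a further library was left out, with 21 without Pool 2 replicate 3 and 33 without Pool 2 replicate 5. The filters test fewer genes. For the other changes the cause was not tested.

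The replicate numbers did not pair the mice, since same-numbered mice deviated together with correlations of −0.157 to 0.255 over 14797 genes. The replicate block left 1301 upregulated and 251 downregulated genes with all mice, and 919 and 238 without Pool 2 replicate 1. The fit of 18 libraries gave 985 and 262. Of 2044 recomputed fold changes of the 115 named genes with all mice, 1934 kept their side of the threshold and 88 lost the call, and of 1818 without replicate 1, 1671 kept it and 128 lost it. None of these changed sign while called. With 5 mice a group, or 4 against 5, the smallest two-sided permutation p-values are 0.00794 and 0.0159, and genes with few reads in Pool 1 mice allow no precise fold.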

Other observations

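Among T cell receptor and immunoglobulin genes, annotated as gene types of their own, most calls were lost without Pool 2 replicate 1. With all mice, 4 of 6 T cell receptor constant genes and 3 of 15 immunoglobulin variable genes were upregulated in Pool 2 compared with Pool 1 mice, against 5.66% of all genes. Without replicate 1 these were 1 of 6 and 0 of 15, against 3.67%. T cell receptor variable genes gave 1 of 4 with all mice and 0 without replicate 1. None of 9 immunoglobulin constant and 4 joining genes was called in either fit. Among 223 genes annotated as microRNA precursors, whose RNA is mostly not polyadenylated, 5 were upregulated and 5 downregulated with all mice, and 3 and 6 without replicate 1. All genes gave 5.66% upregulated and 1.16% downregulated with all mice, and 3.67% and 1.06% without replicate 1. Long non-coding RNAs were called in 141 cases upward and 69 downward of 3930 with all mice, and in 115 and 73 without replicate 1, so the loss of upregulated genes was smaller among them than among the 16756 coding genes, where 1156 became 709. That difference was not tested. Among microRNA precursors and long non-coding RNAs, the upward shares lay below, and the downward shares above, those of all genes in either fit.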
